A study of Homo sapiens with 14 samples.

Results

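The 10 genes described here encode transcription factors and cofactors of red blood cell precursors and their progenitors: GATA1, GATA2, KLF1, TAL1, NFE2, GFI1B, LMO2, BCL11A, MYB and ZFPM1. They were chosen by symbol, and all 10 were found among 35805 gene rows. Of these, 9 were among the 16433 genes with at least 1 group mean above 0 on the log2 scale, and BCL11A was not. The cells were K562, a long-established human line derived from chronic myeloid leukaemia that has erythroid features, and all groups carried dCas9-KRAB, an inactive Cas9 fused to a repressor domain that lowers transcription at the site a guide names. The 6 groups were untransduced cells (2 libraries), the control guide sgAAVS1 (3), and guides to MPP8 (2), PPHLN1, or Periphilin (2), TASOR (2) and TASOR2 (3), and RNA of transduced cells was taken 7 days after transduction. Libraries of a knockdown carried different guides to the same gene, and the deposited TASOR2 mean holds 2 of its 3 libraries. TASOR belongs to HUSH and TASOR2 to HUSH2, complexes that silence genes and transposons through chromatin, and MPP8 and Periphilin act with both. The labels list 14 libraries of total RNA, depleted of ribosomal RNA. The deposited values are the authors' group means, so each gene has 1 value per group, with no SD and no test between libraries. In bulk RNA, fewer cells that express a gene and less RNA per cell cannot be told apart.

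GATA1 and GATA2 bind the same short DNA word, and in red cell formation GATA1 takes over sites that GATA2 holds in progenitors. TAL1 joins LMO2 and GATA factors in a complex at erythroid enhancers, ZFPM1 (also called FOG1) binds GATA1 as a cofactor, and KLF1 binds CACCC words at globin and other red cell genes. NFE2 binds globin control regions, GFI1B represses progenitor genes, MYB keeps progenitors dividing, and BCL11A silences fetal globin. K562 cells make embryonic and fetal globins.

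The upstream stretches of 4 members are shown because they differ in base composition and in the words these factors bind. The letters come from the RefSeq promoter table (GRCh38.p14), which held 8 of the 10 members (all but LMO2 and NFE2). Capitals mark a GATA word (AGATAA or AGATAG, or else TGATAA or TGATAG) or CACCC, each on either strand, and the strand shown is the gene's own, 5′ to 3′. The KLF1 and TAL1 genes lie on the minus strand, GATA1 and ZFPM1 on the plus strand.
KLF1, chr19:12887202-12887451: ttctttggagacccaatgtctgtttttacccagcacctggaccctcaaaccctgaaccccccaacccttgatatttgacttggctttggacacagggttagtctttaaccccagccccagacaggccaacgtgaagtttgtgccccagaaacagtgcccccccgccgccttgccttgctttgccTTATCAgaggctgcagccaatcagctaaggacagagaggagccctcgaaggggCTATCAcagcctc
TAL1, chr1:47232336-47232585: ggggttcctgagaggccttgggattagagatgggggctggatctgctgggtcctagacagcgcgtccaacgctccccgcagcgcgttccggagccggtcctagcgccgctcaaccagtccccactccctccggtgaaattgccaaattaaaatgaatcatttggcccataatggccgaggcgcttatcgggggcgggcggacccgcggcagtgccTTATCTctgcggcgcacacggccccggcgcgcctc
GATA1, chrX:48786340-48786553: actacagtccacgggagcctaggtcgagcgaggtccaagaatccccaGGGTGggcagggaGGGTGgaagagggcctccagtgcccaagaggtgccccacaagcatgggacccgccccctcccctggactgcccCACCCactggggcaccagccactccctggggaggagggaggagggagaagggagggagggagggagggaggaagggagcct
ZFPM1, chr16:88453030-88453279: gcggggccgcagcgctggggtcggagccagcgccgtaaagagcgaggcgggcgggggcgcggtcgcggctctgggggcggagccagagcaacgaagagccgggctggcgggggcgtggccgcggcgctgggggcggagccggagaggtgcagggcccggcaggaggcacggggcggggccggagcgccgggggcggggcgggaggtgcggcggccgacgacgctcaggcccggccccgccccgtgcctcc
In the 250 bases before the annotated start, KLF1 held 2 GATA words, the first letters of which lie 66 and 13 bases before the start, and the outer start of TAL1 held 1, at 35 bases. A second GFI1B start held 1 as well, at 116 bases. Counted by start, 3 of the members' 15 promoters held a GATA word, beside 22.3% of 35116 promoters of the same length. The GATA1 window held 4 CACCC words, of which 3 lie in the 214 bases shown. A GATA2 window also held 4, and a BCL11A window held 5. By start, 9 of the members' 15 promoters held at least 1 CACCC word, beside 54.7% of all promoters. The ZFPM1 window held neither word, and at 83.2% GC it had more G and C than 98.95% of the promoters, whose median was 58.0%. These are matches of letters only, and binding was not measured. The GC values in the results below are those of transcripts, not of these stretches.

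Values are log2 RPM, read counts scaled to the depth of the library. They are not divided by gene length, so they are compared between groups within a gene and not between genes. Over the 9 measured members the group means lay between 6.57 and 8.42, which corresponds to 1112 to 5488 reads per gene summed over a group's libraries. Differences are printed ± the reach of their 95% Poisson interval to either side, computed at the depth recovered from the table, which covers counting error only. For the members this reach lay between 0.057 and 0.105 in the comparisons with sgAAVS1. Spread between libraries or guides could not be measured. A gene was called when its difference reached a set size, the higher mean was above 0 and the interval excluded 0. The sizes were 2-fold and 1.5-fold, the latter 0.585 on the log2 scale.

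The libraries held 5857937 to 7406968 reads, as a geometric mean per group. The targeted genes each had their lowest mean where they were targeted: 6.56% of the sgAAVS1 level was left of TASOR, 28.2% of MPP8, 37.5% of TASOR2 and 40.8% of PPHLN1. Erythroid markers were measured in all groups, with sgAAVS1 means of 6.10 for HBG1, 7.14 for HBG2, 6.68 for HBE1 and 4.53 for HBZ, which are globin genes, 8.47 for TFRC, the transferrin receptor, and 6.303 for ALAS2, an enzyme of haem synthesis. In PPHLN1 the HBZ mean was 5.23 and the ALAS2 mean 6.99, and in untransduced cells they were 4.76 and 6.625. The PPHLN1 means of HBG1, HBG2, HBE1 and TFRC were 6.46, 7.39, 6.87 and 8.585. Of 5 megakaryocyte markers GP9, PF4 and PPBP had no reads in any group, and the summed level of the 5, from ITGA2B and GP1BB, went from 215 RPM in TASOR2 and 256 in untransduced cells to 337 in MPP8, with 300.2 in sgAAVS1. In TASOR2 ITGA2B was called lower than sgAAVS1 at 1.5-fold (-0.997 ± 0.106), beside 4.9% of all tested genes. GP1BB was within counting error there (-0.059 ± 0.09). The 6 monocyte or granulocyte markers summed to 152 to 180 RPM over the groups, mostly from SPI1 and LYZ. The 6 lymphoid markers summed to 35.0 to 49.2, and the 5 epithelial or fibroblast markers to 132 to 162, mostly from EPCAM and COL1A1. The part of these marker levels in the members' values was not tested.

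No member was called at either size in any knockdown. At 1.5-fold, 0 of the 9 members were called in TASOR, beside 5.98% of the 16433 genes tested, 0 in TASOR2 beside 10.2%, 0 in MPP8 beside 4.0% and 0 in PPHLN1 beside 7.38%. At 2-fold the shares of all genes were 2.29%, 4.3%, 1.97% and 3.49%. Untransduced cells gave 0 of 9 beside 3.83% at 1.5-fold and 1.62% at 2-fold. Over the 4 knockdowns the 36 member differences from sgAAVS1 lay between -0.20 and 0.26, that is between 0.870-fold and 1.20-fold. The median of all tested genes was itself above sgAAVS1, by 0.16 in TASOR, 0.07 in TASOR2, 0.12 in MPP8, 0.17 in PPHLN1 and 0.05 in untransduced cells, so small positive differences are read against it. Of the 36, 28 were above 0 and 14 were above the median of all tested genes.

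**Figure D1:**
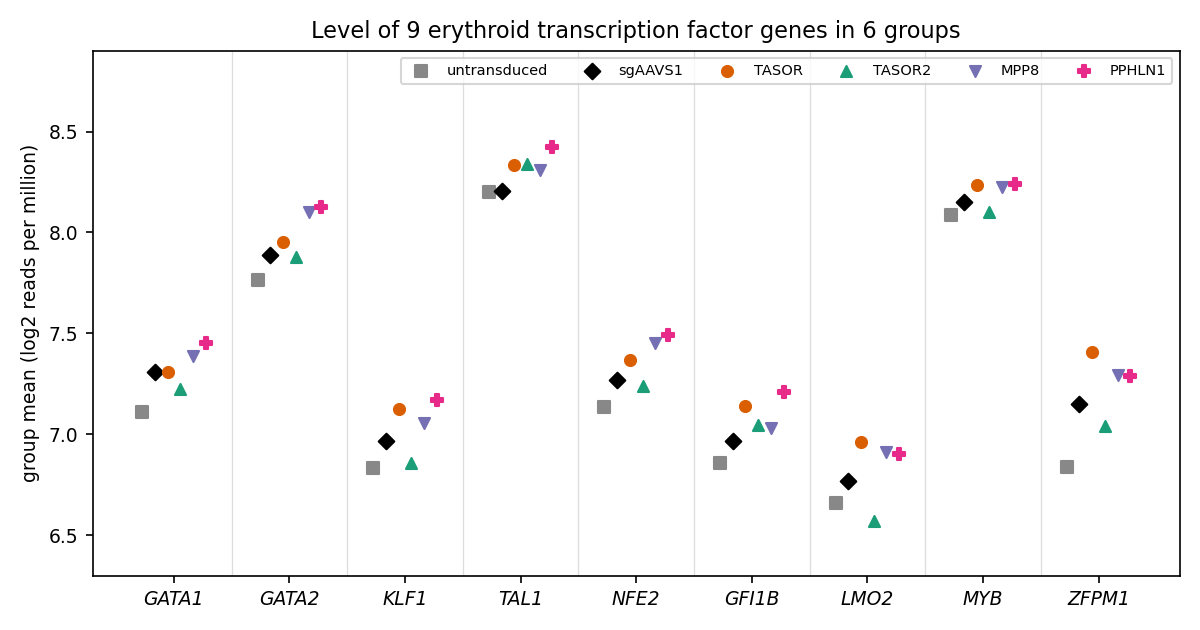
Group mean of each measured member (vertical axis, log2 RPM, not from 0) in the 6 groups, with 1 symbol per group mean and no error bar because single libraries were not analysed here. Within a gene the symbols lie within 0.57 of each other, and untransduced cells are the lowest in 8 of the 9 genes.

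GATA1 (chromosome X, 48786554 to 48794311 on hg38, protein-coding, as are all members) had a mean of 7.11 in untransduced cells, 7.22 in TASOR2, 7.31 in TASOR, 7.31 in sgAAVS1, 7.39 in MPP8 and 7.45 in PPHLN1. The means from TASOR2 up to PPHLN1 each lay within the counting interval of the next, and the step from untransduced cells to TASOR2 was larger than its interval. In TASOR the gene was level with sgAAVS1 (-0.005 ± 0.080) while 92.8% of the 9399 genes with an overall mean above 5 were higher there. Its value relative to the median gene was -0.17, with 6.34% of those 9399 genes lower than it. The largest distance from sgAAVS1 was in untransduced cells, at -0.20 ± 0.08.

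GATA2 (chromosome 3, 128479427 to 128493185) had means of 7.76 in untransduced cells, 7.88 in TASOR2, 7.89 in sgAAVS1, 7.95 in TASOR, 8.10 in MPP8 and 8.12 in PPHLN1. The knockdowns of the 2 subunits that HUSH and HUSH2 share stood together at the top, 0.22 ± 0.07 and 0.24 ± 0.07 above sgAAVS1, and differed from each other by 0.02, within counting error. Relative to the median gene these were 0.09 and 0.07. The antisense gene GATA2-AS1 overlaps GATA2 by 3974 bases, and its means ran from 6.22 in TASOR2 and 6.34 in sgAAVS1 to 6.56 in TASOR. Whether reads were counted by strand was not stated in what was available, so reads of the pair may not be fully separate.

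KLF1 (chromosome 19, 12884423 to 12887181) had means of 6.83 in untransduced cells, 6.86 in TASOR2, 6.96 in sgAAVS1, 7.06 in MPP8, 7.13 in TASOR and 7.17 in PPHLN1. Its TASOR2 mean was below sgAAVS1 (-0.105 ± 0.097) and its PPHLN1 mean 0.20 ± 0.09 above. No neighbouring pair in this order differed beyond counting error except TASOR2 and sgAAVS1. Of the genes with a mean above 5, 68.4% lay below KLF1 in PPHLN1 and 17.6% in TASOR2.

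TAL1 (chromosome 1, 47216290 to 47232220) had nearly the same mean in untransduced cells, 8.20, and sgAAVS1, 8.20. MPP8 gave 8.31, TASOR 8.33, TASOR2 8.34 and PPHLN1 8.42, all above both controls beyond counting error. Relative to the median gene they lay between -0.03 in TASOR and 0.07 in TASOR2. TAL1 was the one member above sgAAVS1 beyond counting error in TASOR2, at 0.14 ± 0.06. RP1-18D14.7, an antisense gene that overlaps TAL1 by 4954 bases, had means between -2.05 and -0.28, too few reads to compare.

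LMO2 (chromosome 11, 33858576 to 33892289), the bridging partner of TAL1, had its lowest mean in TASOR2, 6.57, followed by 6.66 in untransduced cells, 6.77 in sgAAVS1, 6.90 in PPHLN1, 6.91 in MPP8 and 6.96 in TASOR. The TASOR2 difference from sgAAVS1, -0.201 ± 0.105, was the lowest of the 36 knockdown values, and that of untransduced cells was -0.112 ± 0.096. TASOR was 0.39 ± 0.11 above TASOR2, the largest of the members' differences between any 2 knockdowns. It was 0.27 with the trend on GC content removed.

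ZFPM1 (chromosome 16, 88453317 to 88537016) varied most. Its means were 6.84 in untransduced cells, 7.04 in TASOR2, 7.15 in sgAAVS1, 7.29 in PPHLN1, 7.29 in MPP8 and 7.41 in TASOR, or 115, 132, 142, 156, 157 and 170 RPM. All steps in this order exceeded counting error except that between PPHLN1 and MPP8. The span from lowest to highest was 0.57, a 1.48-fold difference, and 90.1% of the 9399 genes had a smaller one. TASOR against untransduced cells, 0.57 ± 0.09, came closest of all 135 member differences in the 15 comparisons to the 1.5-fold size of 0.585, and did not reach it. With the trend on GC content removed that difference was 0.44. TASOR2 minus sgAAVS1 then went from -0.11 to 0.16, so the order of the groups depends on this trend.

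NFE2 (chromosome 12, 54292111 to 54301121) had means of 7.13 in untransduced cells, 7.24 in TASOR2, 7.27 in sgAAVS1, 7.37 in TASOR, 7.45 in MPP8 and 7.49 in PPHLN1. GFI1B (chromosome 9, 132945551 to 132991696) had means of 6.86 in untransduced cells, 6.96 in sgAAVS1, 7.03 in MPP8, 7.05 in TASOR2 and 7.14 in TASOR, with the highest, 7.21, in PPHLN1. For both genes PPHLN1 was highest, by 0.22 ± 0.08 and 0.25 ± 0.09 over sgAAVS1, or 0.05 and 0.07 over the median gene. MYB (chromosome 6, 135181315 to 135219173), the progenitor factor, was the steadiest, with means of 8.08 in untransduced cells, 8.10 in TASOR2, 8.15 in sgAAVS1, 8.23 in MPP8, 8.23 in TASOR and 8.24 in PPHLN1. Its span of 0.16 was smaller than that of all but 3.76% of the 9399 genes. This holds for the values as deposited. With the trend on GC content removed, PPHLN1 minus TASOR2 went from 0.14 to 0.24 for MYB. TASOR2 minus sgAAVS1 went from -0.05 to -0.14.

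BCL11A (chromosome 2, 60451167 to 60553567) had no reads in any of the 6 groups. A count of 0 allows up to 3 reads over a group, a log2 value of -2.63 in sgAAVS1, -2.30 in untransduced cells, -2.21 in TASOR, -1.99 in PPHLN1, -1.98 in MPP8 and -1.97 in TASOR2. No fold is given, since every group is under this limit. All 10 genes of a list of other globin switching regulators were measured, and none was called at 1.5-fold in any knockdown. The shares of all tested genes called were 5.98% in TASOR, 10.2% in TASOR2, 4.0% in MPP8 and 7.38% in PPHLN1. IGF2BP1, an RNA-binding protein of the fetal programme, had a mean of 9.21 in sgAAVS1 and 9.26 to 9.29 in the knockdowns.

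Over the 6 groups the members had a median span of 0.35, beside 0.31 for the 9399 genes, with 7 members above that median and 2, TAL1 and MYB, below it.

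In the TASOR knockdown 8 of 9 members were above sgAAVS1 beyond counting error, beside 65.8% of genes with a mean above 5, and 3 were above the median of all tested genes. In MPP8 it was 6 of 9 beside 56.5%, with 4 above the median gene. In PPHLN1 all 9 were higher beyond counting error, beside 77.0%, with 5 above the median gene and a member median of 0.20, or 0.03 relative to it. PPHLN1 held the highest mean for 7 of the 9 members and TASOR for ZFPM1 and LMO2. Of the 9399 genes 31.6% had their highest mean in PPHLN1 and 19.2% in TASOR. Differences in TASOR, MPP8 and PPHLN1 went with transcript GC (Spearman's rho 0.18, 0.31 and 0.34 across 9362 genes, which are not independent replicates). With the GC trend removed 7, 5 and 8 members were above sgAAVS1 beyond counting error, beside 66.8%, 50.7% and 78.0% of these genes. Then 3, 3 and 4 were above the median of the genes with a mean above 5. Relative to that median the PPHLN1 member median was -0.02. Before removal the counts and the PPHLN1 median were set against all tested genes, so values before and after are not directly comparable. The comparisons share the sgAAVS1 mean, so these counts are not independent of each other.

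**Figure D2:**
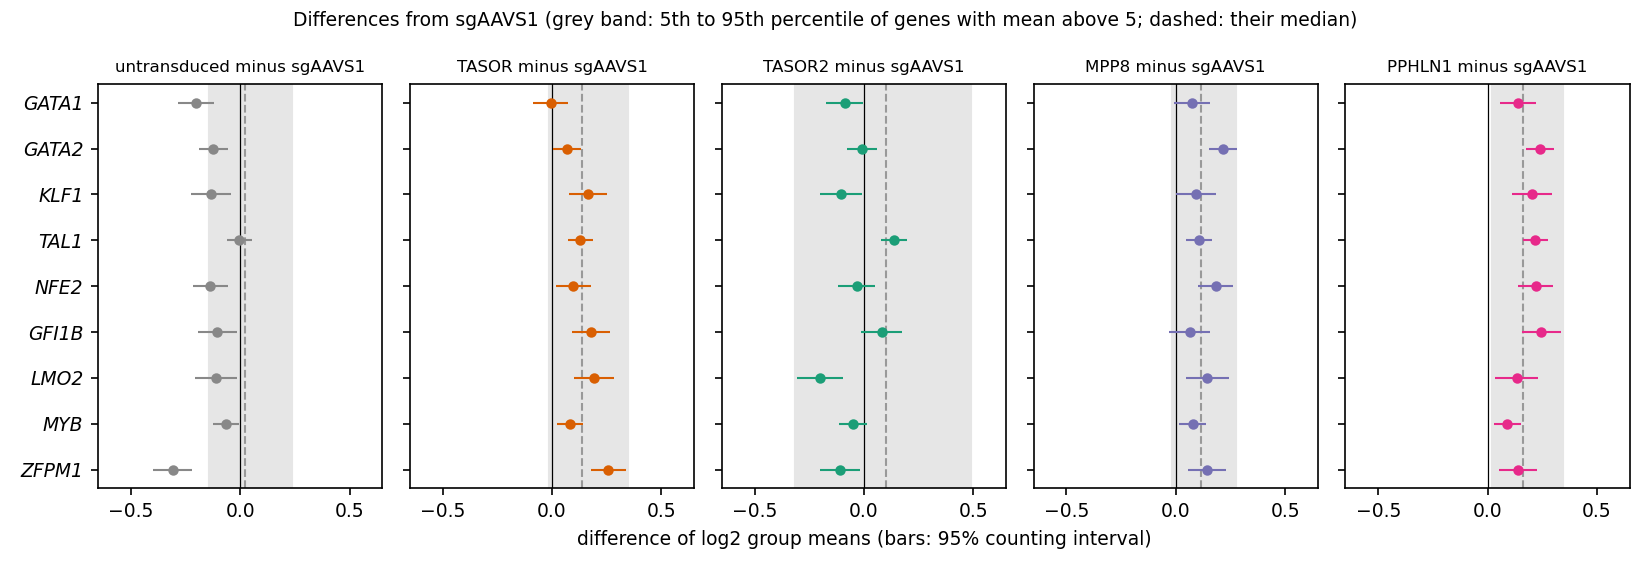
Difference of each member from sgAAVS1 (horizontal axis, log2) in the 5 other groups; points are differences of group means, bars the 95% counting interval, the grey band the 5th to 95th percentile of the 9399 genes with a mean above 5 and the dashed line their median. All 36 knockdown values lie inside the band, and in untransduced cells GATA1 (-0.20) and ZFPM1 (-0.31) lie left of it.

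Of the 4 knockdowns TASOR2 had the lowest mean for 7 of the 9 members, all but TAL1 and GFI1B. The share of all genes lowest in TASOR2 among the 4 knockdowns was not computed, so this count is not read as a trait of the members. Over all 6 groups TASOR2 was lowest for 1 member, LMO2, beside 23.8% of the 9399 genes. In the TASOR2 knockdown 4 members (GATA1, KLF1, LMO2 and ZFPM1) were below sgAAVS1 beyond counting error, beside 17.0% of the 9399 genes. There 1 member, TAL1, was above sgAAVS1 beyond counting error, beside 48.7%. The member median was -0.05, and -0.12 once that of all tested genes is subtracted. In this group differences went with the GC content of the transcript over the 9399 genes (Spearman's rho -0.70 across 9362 genes with a GC value, which are not independent replicates). Transcript GC was 69.0% for ZFPM1, 65.7% for KLF1, 60.9% for GATA1, 59.7% for GATA2 and 55.5% for LMO2, and 44.7% for GFI1B and 43.9% for MYB. With a smooth trend on GC removed, ZFPM1 went from -0.11 to 0.16, KLF1 from -0.105 to 0.14 and GATA1 from -0.09 to 0.10, while LMO2 went from -0.20 to -0.087, within its counting reach of 0.105, and MYB went from -0.05 to -0.14. The member median became 0.10. Beyond counting error 5 members were then above sgAAVS1, beside 50.3% of the 9362 genes, and 1, MYB, was below it, beside 10.3%. Of the 9 members 4 were then above the median of the genes with a mean above 5. Removing the trend turned the sign of the TASOR2 difference for GATA1, GATA2, KLF1, NFE2 and ZFPM1.

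**Figure D3:**
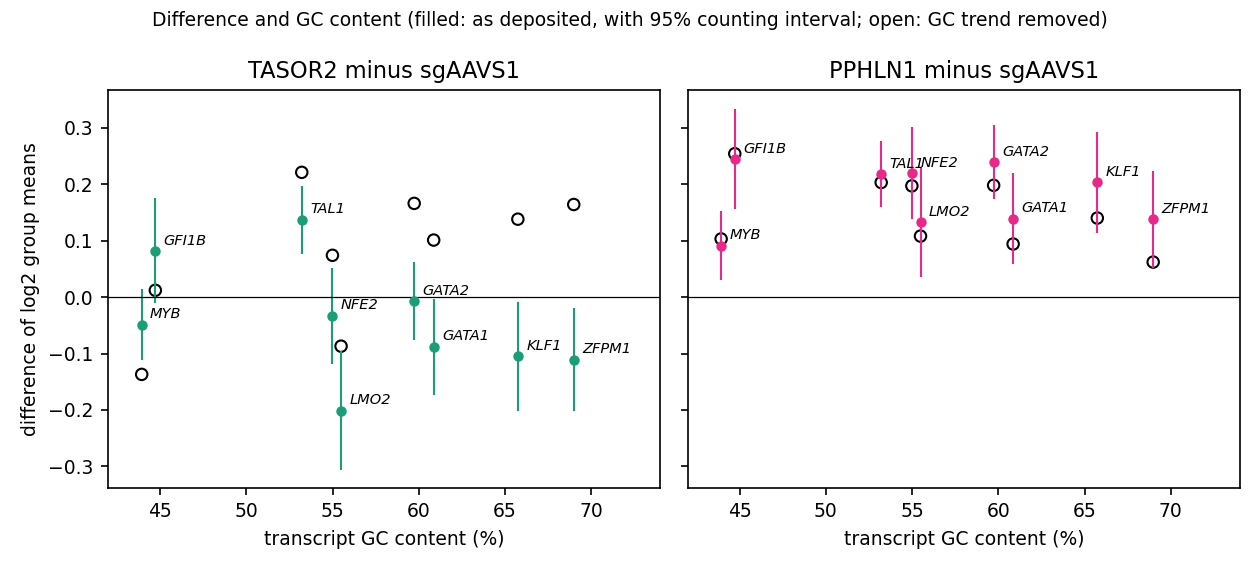
Difference from sgAAVS1 (vertical axis, log2) against transcript GC content (horizontal axis, percent) for the 9 members in TASOR2 and PPHLN1; filled points carry the 95% counting interval and open circles are the values with the GC trend removed. In TASOR2 ZFPM1, the member with the most GC, moves from -0.11 to 0.16 and KLF1 from -0.105 to 0.14, and in PPHLN1 they move from 0.14 to 0.06 and from 0.20 to 0.14.

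Compared directly, 6 of 9 members were higher in TASOR than in TASOR2 beyond counting error, beside 36.9% of the 9399 genes, and none was called at 1.5-fold, beside 15.2% of all tested genes. With the GC trend removed the member median of TASOR minus TASOR2 went from 0.13 to 0.01. Beyond counting error 3 members were then higher in TASOR, LMO2 by 0.27, MYB by 0.23 and GFI1B by 0.17, beside 31.0% of the 9362 genes. The other direction held 3 members, beside 19.5%. PPHLN1 stood above TASOR2 beyond counting error for all 9 members, beside 42.2% of the 9399 genes, with a median of 0.25. This median became 0.03 with the GC trend removed. Beyond counting error 4 members were then higher, beside 34.8% of the 9362 genes, and 1 was lower, beside 13.0%. MPP8 minus PPHLN1 lay between -0.18 for GFI1B and 0.01 for LMO2, and KLF1, TAL1 and GFI1B, 3 of 9, were lower in MPP8 beyond counting error, beside 23.7% of the 9399 genes.

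Untransduced cells differed from sgAAVS1 in 1 direction. All 9 members had lower means there, with ZFPM1 at -0.31 ± 0.09, GATA1 at -0.20 ± 0.08, NFE2 at -0.14 ± 0.08, KLF1 at -0.13 ± 0.09 and GATA2 at -0.12 ± 0.07. LMO2, GFI1B, MYB and TAL1 followed at -0.112, -0.105, -0.064 and -0.005. For 8 of the 9, all but TAL1, this was beyond counting error, beside 13.9% of the 9399 genes, of which 57.6% were higher in untransduced cells. Only 0.160% of those genes lay below ZFPM1 and 1.19% below GATA1. Untransduced cells had the lowest mean of the 6 groups for 8 members, all but LMO2, beside 28.9% of the 9399 genes. This comparison also followed GC content (rho -0.54). With the GC trend removed 8 members had values below 0, with a median of -0.08, but only 4 of them beyond counting error, beside 9.15% of the genes with a GC value. These were ZFPM1 at -0.215, GFI1B at -0.14, GATA1 at -0.13 and MYB at -0.10. NFE2 at -0.081, LMO2 at -0.054, GATA2 at -0.050, KLF1 at -0.046 and TAL1 at 0.037 were within it. With quantile normalization 8 were lower as well. Transduction, the guide and any difference in culture or harvest cannot be told apart here, and spread between the libraries was not measured.

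**Figure D4:**
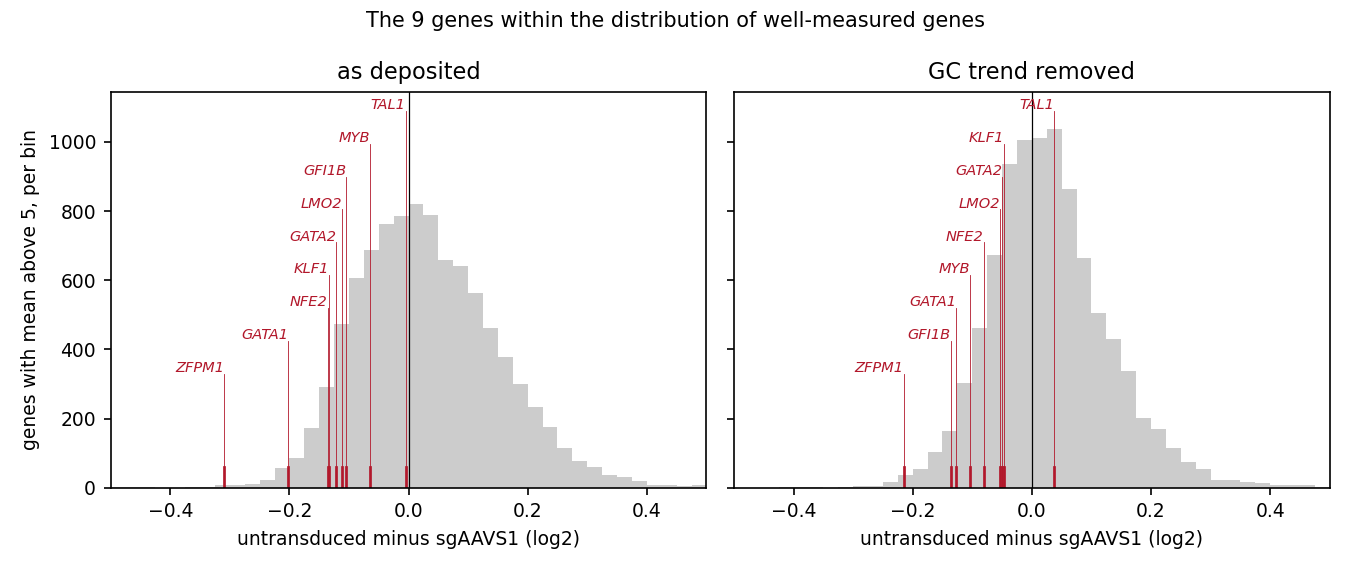
Number of genes with a mean above 5 (vertical axis) by their untransduced minus sgAAVS1 difference (horizontal axis, log2, bins of 0.025), as deposited and with the GC trend removed; red lines mark the 9 members, and heights of their labels carry no value. As deposited the members run from -0.31 for ZFPM1 to -0.005 for TAL1, and with the trend removed from -0.215 to 0.04.

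Against untransduced cells in place of sgAAVS1, all 9 members were higher beyond counting error in TASOR, MPP8 and PPHLN1, beside 53.7%, 46.6% and 59.2% of the 9399 genes, and 6 in TASOR2 beside 47.2%. The member medians were 0.23 in TASOR, 0.11 in TASOR2, 0.26 in MPP8 and 0.34 in PPHLN1. For all tested genes the medians were 0.12, 0.04, 0.08 and 0.13 in the same order. No member was called at 1.5-fold, beside 4.77%, 10.2%, 4.88% and 4.73% of all tested genes. These differences went with GC content (rho 0.67 in TASOR, -0.505 in TASOR2, 0.57 in MPP8 and 0.71 in PPHLN1, across the 9362 genes). With the trend removed the member medians were 0.182 in TASOR, 0.184 in TASOR2, 0.185 in MPP8 and 0.221 in PPHLN1. Relative to the median of the genes with a mean above 5 they were 0.066, 0.091, 0.102 and 0.079. Beyond counting error 9, 7, 7 and 9 members were then higher, beside 56.4%, 45.6%, 40.9% and 64.1% of the 9362 genes. These values share the untransduced mean that was low for the members in the previous comparison.

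Lists of partner and signalling genes gave no call in a knockdown against sgAAVS1. Of 13 measured genes of the LDB1 complex, 8 partners and rivals of NFE2, 19 corepressor genes that act with GFI1B, ZFPM1 or BCL11A, and 19 genes of the signalling pathway upstream, none was called at 1.5-fold in any of the 4 knockdowns, beside the shares given above. Between TASOR and TASOR2, 1 corepressor gene and 1 signalling gene were called higher in TASOR at 1.5-fold, beside 12.5% of all tested genes. In untransduced cells 1 signalling gene, KIT, was called above sgAAVS1 (0.59 ± 0.19), beside 3.24%. KIT is named because it was the one gene called there. TCF3, an E protein that pairs with TAL1, had a mean of 8.23 in sgAAVS1 and 8.16 to 8.42 in the knockdowns. RUNX1, a blood progenitor factor, had 8.001 in sgAAVS1 and 8.14 to 8.25. NFE2L1 and MAFG, a relative and a small Maf partner of NFE2, went from 8.44 and 7.96 in sgAAVS1 to 8.61 and 8.17 in MPP8. CHD4 and RBBP4, subunits of the NuRD corepressor, lay between 9.08 and 9.23 and between 8.46 and 8.61 in the knockdowns. ABL1 and CRKL, of the kinase pathway active in this leukaemia, had sgAAVS1 means of 9.02 and 8.93, and their knockdown means ran from 8.97 to 9.13 and from 8.94 to 9.11.

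Of 25 measured paralogs 3 were higher at 1.5-fold in TASOR (GATA6 by 0.80 ± 0.50, KLF4 by 0.79 ± 0.67 and GATA5 by 0.69 ± 0.22), beside 5.33% of all tested genes, and none in the other knockdowns. Untransduced cells gave 4 higher, KLF4 among them (0.81 ± 0.66), beside 3.24%. GATA5 had means of 4.24 in untransduced cells, 4.03 in sgAAVS1, 4.71 in TASOR, 3.59 in TASOR2, 4.18 in MPP8 and 4.22 in PPHLN1. The TASOR count was 1 with median centring, 0 with quantile normalization and 0 against untransduced cells. Among 16 measured factors of other blood lineages, CEBPA, a myeloid factor, was lower in TASOR (1.91 in sgAAVS1, 1.01 in TASOR), beside 0.651% of all tested genes. FOXP3 was higher in TASOR by 0.88 ± 0.65, beside 5.33%, and CEBPD higher in PPHLN1 by 0.63 ± 0.20, beside 6.32%. The list's count of higher genes in TASOR was 0 with quantile normalization, a pseudocount of 1 or a filter of 2, and that in PPHLN1 was 0 with either scaling, the GC trend removed or untransduced cells as the control. Of 8 measured progenitor genes SOX4 was lower (-0.77 ± 0.70) and HPGD higher (0.71 ± 0.62) in TASOR2, from sgAAVS1 means of 1.71 and 1.16, beside 4.9% of all tested genes lower and 5.31% higher. The higher count was 0 with the GC trend removed, a pseudocount of 1, a filter of 2 or untransduced cells as the control, and the lower count was 0 with the pseudocount.

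Among erythroid genes that these factors are known to act on, some were called. Of 43 measured, 6 were higher at 1.5-fold in PPHLN1 and none lower, beside 6.32% of all tested genes higher. In TASOR 4 were higher, beside 5.33%, and 1 lower, beside 0.651%. In TASOR2 2 were higher, beside 5.31%, and 2 lower, beside 4.9%, and with the GC trend removed these counts were 1 and 1. In MPP8 none was called, beside 4.0%. The list median was 0.27 in PPHLN1 and 0.18 in TASOR, beside 0.17 and 0.16 for all tested genes. EPB42, a red cell membrane protein, had means of 3.57 in untransduced cells, 3.27 in sgAAVS1, 4.14 in TASOR, 3.55 in TASOR2, 3.33 in MPP8 and 4.12 in PPHLN1. SLC4A1, the band 3 anion exchanger, had means of 4.88 in sgAAVS1, 5.23 in untransduced cells, 5.73 in TASOR and 6.05 in PPHLN1. CA1, a carbonic anhydrase, had 3.41 in sgAAVS1, 4.09 in TASOR, 4.24 in untransduced cells and 4.62 in PPHLN1, so that TASOR lay below untransduced cells, which were themselves called above sgAAVS1 (0.83 ± 0.26). TRIM10, an erythroid ring finger gene, was lower in TASOR2 (-1.37 ± 1.01) from a mean of 1.11 in sgAAVS1. With median centring or quantile normalization the PPHLN1 count was 3, and against untransduced cells it was 1. The TASOR count was 2 with quantile normalization and 0 against untransduced cells.

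A list of genes taken to lie near the members was written from general knowledge, and distances were not computed. Of its 24 measured genes 1, ALDH8A1, was called against sgAAVS1, in TASOR2 (1.80 ± 1.26), from a mean of -1.35 in sgAAVS1. In TASOR2 10.2% of all tested genes were called at 1.5-fold and 4.3% at 2-fold. The genes whose 6 means most resembled those of the 3 most variable members were taken from the 2811 or 2812 genes with a mean of at least 3 and a span of at least 0.5. For ZFPM1 they were AQP3, ELMO3 and GCDH, with Pearson's r of 0.974, 0.966 and 0.963 over the 6 groups. AQP3, a water and glycerol channel, ran from 4.65 in untransduced cells to 5.80 in TASOR. For LMO2 they were ROGDI, MFSD10 and DES (r 0.9996, 0.9955 and 0.9947), and 169 genes reached 0.95, against 5 for ZFPM1. For GATA2 they were CTB-129P6.7, MSRA and OGFR (r 0.981, 0.980 and 0.977), with 10 genes at 0.95 or more. The 6 points of each correlation are group means that share their libraries and depths across genes, and r is given as a description.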

How the data were processed

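Total RNA of K562 cells was sequenced in 14 libraries in 6 groups. The submitters' processing notes name cutadapt, Bowtie2 and genome build hg38. Not given in the sources used here were tool versions, the counter, the annotation and the handling of strand and introns. A single table from the authors was used, deposited with the mean log2 value of untransduced cells and, for the 5 other groups, a value found to be the group's mean log2 value divided by it (an unlabelled quotient, not a fold or a ratio of expression). Each quotient was multiplied by the deposited untransduced log2 value. Low values were then whole-read steps in 100% of 2072 to 2162 values per column (relative tolerance 0.001), with 0 reads set to 0.9, which gave the depth and the number of libraries in each mean (3 for sgAAVS1, 2 for the others, where the labels list 3 for TASOR2). Which 2 of those 3 was not stated.

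The planned limma test needs single libraries and was not run. A rule of size with a Poisson counting interval took its place. It was checked only on simulated counts with Poisson error. These hold no spread between libraries or guides, so the check cannot show how the rule performs where such spread exists. Of rows with a repeated symbol, 87 were dropped and the one with the highest mean kept. Transcript GC was that of the longest GENCODE 29 transcript, by symbol or 80% reciprocal overlap, and its trend was a lowess curve (span 0.3) over genes with a mean above 5. Python 3.11.15, pandas 2.3.3 and statsmodels 0.14.6 were used. Named genes were the members, overlapping genes in the table with reads, the targeted genes, up to 4 called genes (else the 2 highest) per list, and the 3 most similar genes for each of the 3 most variable measured members. The members and lists were chosen with earlier results of these data known. Alternatives were the control, scaling, GC trend, pseudocount, filter and call size. One item of the erythroid marker list is not reported here.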

Additional observations from a re-analysis of the deposited data

How the results depend on the processing

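The count of members called stayed at 0 in the 4 knockdowns with untransduced cells as the control, and in all 5 comparisons with sgAAVS1 under the other alternatives run: median centring, quantile normalization, GC trend removed, a pseudocount of 1, no filter on low values, a filter of 2 and the 1.5-fold size. Member medians did move with control and scaling. With untransduced cells as the control they were 0.233 in TASOR, 0.114 in TASOR2, 0.255 in MPP8 and 0.340 in PPHLN1. Median centring gave -0.033 in TASOR, -0.015 in MPP8 and 0.030 in PPHLN1, and quantile normalization gave 0.022, 0.017 and 0.039, with -0.153 in TASOR2. Removing the GC trend moved TASOR2 to 0.101. By construction centring subtracts the median of all genes, and a filter on low values leaves the difference of a member unchanged. A pseudocount of 1 can hardly move genes at the levels of the members. The unchanged count of members called under the filters and the pseudocount therefore carries no information. For the other alternatives the cause was not tested. Of single member differences, 32 of 36 moved beyond the counting interval with the other control, 29 of 45 with centring, 36 of 45 with quantile normalization, 11 of 45 with the GC trend removed, and 0 of 45 with the pseudocount or either filter. Over all genes, the higher and lower calls at 2-fold in TASOR were 320 and 56, against 209 and 95 centred and 145 and 139 after quantile normalization, and in PPHLN1 473 and 101 against 345 and 155 or 295 and 193. A filter of 2 left 82 and 9 in TASOR and 185 and 28 in PPHLN1. No paired analysis was possible because the table holds group means only, and for the same reason leaving out each replicate was not run. Depth limits BCL11A to a statement of no reads.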
